A study of Mus musculus with 20 samples.

Results

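Serine/arginine-rich (SR) proteins and heterogeneous nuclear ribonucleoproteins (hnRNPs) were followed as transcripts in alveolar macrophages of smoke-exposed and air-exposed mice. The members are the genes whose symbol begins with Hnrnp, or with Srsf and a number, and holds no dot or hyphen. This gave 30 of the 13225 genes in the table, 10 Srsf and 20 Hnrnp genes, and the rule used no measured value. RNA was sequenced from alveolar macrophages, the resident macrophages of the air spaces, sorted from lung as CD45-positive, Siglec-F-positive and CD11c-positive cells. The 4 groups were miR-155 KO smoke (strain B6.Cg-Mir155tm1.1Rsky/J, a germline knockout of the microRNA, exposed to cigarette smoke for 4 weeks), miR-155 KO air (the same strain in air for 4 weeks), WT smoke (C57BL/6, smoke for 4 weeks) and WT air (C57BL/6, air for 4 weeks). Each group held 5 mice with 1 library per mouse, and no age or sex of the mice was given in the sources used here.

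SR proteins carry RNA recognition motifs and a tail rich in serine-arginine dipeptides. They bind exonic enhancers and recruit the U1 and U2 particles of the spliceosome to nearby splice sites. The hnRNPs coat nascent transcripts, and many of them oppose SR proteins at silencer elements, so that the balance of the families sets which exons are included. Several members of both families hold down their own level by splicing a poison exon into their own transcript, which sends it to nonsense-mediated decay (NMD). In macrophages, splicing and decay of inflammatory transcripts both pass through these proteins.

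The gene removed in the knockout strain encodes miR-155-5p, a microRNA induced in activated macrophages that lowers its targets by pairing with their 3-prime UTRs. Its mature sequence at chr16:84714143-84714165 on the plus strand of GRCm38.p6 (RefSeq) is printed here with the seed, bases 2 to 8, in capitals, because it sets which letters were searched for in these transcripts.
miR-155-5p: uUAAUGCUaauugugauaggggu
A match to the seed (AGCATTA, or its last letters GCATTA followed by A) was found in the longest annotated 3-prime UTR of 6 of the 30 members, which is 20%, against 13.7% of 11282 measured coding genes. The sites are shown with the matching bases in capitals, as cut from the GENCODE M21 transcripts.
Hnrnpa2b1 8mer: ctaataggagaaaaaAGCATTAAt
Hnrnpa3 8mer: atttgtgaatttaatAGCATTAAg
Hnrnpa3 7mer-m8: gcaaggaagggcaataAGCATTAg
Hnrnpdl 7mer-A1: tggtgtatcttttggtGCATTAAa
Hnrnpr 7mer-m8: cggtttgttcagcttaAGCATTAg
Hnrnpu 7mer-A1: ggggtcctcatgaattGCATTAAg
Hnrnpu 7mer-m8: aacttaggaatgatatAGCATTAc
Srsf1 7mer-A1: gatgtgtttagtagatGCATTAAg
An 8mer, the full seed match followed by A, was in 2 members (Hnrnpa2b1 and Hnrnpa3), 6.67% against 3.33% of coding genes. A match of this kind is a description of the letters and not a shown target.

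The promoters of 4 genes that were lower with smoke in both genotypes, and for which RefSeq lists a single start, are printed to show the motifs counted over all members. Each runs from 250 bases before to 50 after the start, read along the gene, with capitals marking the GC box GGGCGG, the CCAAT box, the ETS core CCGGAAG and the YY1 core ATGGCGG on either strand.
Hnrnpdl (chr5:100039173-100039472, minus strand): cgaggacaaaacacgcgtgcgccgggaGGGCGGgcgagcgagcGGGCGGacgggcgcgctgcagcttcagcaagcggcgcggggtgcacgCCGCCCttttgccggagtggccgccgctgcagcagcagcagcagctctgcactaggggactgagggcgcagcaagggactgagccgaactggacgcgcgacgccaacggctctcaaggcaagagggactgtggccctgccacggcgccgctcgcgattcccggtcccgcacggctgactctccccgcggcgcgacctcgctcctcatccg
Hnrnpl (chr7:28810640-28810939, plus strand): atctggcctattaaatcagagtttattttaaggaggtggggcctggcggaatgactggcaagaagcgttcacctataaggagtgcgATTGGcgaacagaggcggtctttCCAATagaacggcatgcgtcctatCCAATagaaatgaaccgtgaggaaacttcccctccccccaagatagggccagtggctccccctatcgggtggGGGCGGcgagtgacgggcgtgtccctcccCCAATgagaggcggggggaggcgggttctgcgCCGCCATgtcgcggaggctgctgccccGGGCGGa
Srsf5 (chr12:80945249-80945548, plus strand): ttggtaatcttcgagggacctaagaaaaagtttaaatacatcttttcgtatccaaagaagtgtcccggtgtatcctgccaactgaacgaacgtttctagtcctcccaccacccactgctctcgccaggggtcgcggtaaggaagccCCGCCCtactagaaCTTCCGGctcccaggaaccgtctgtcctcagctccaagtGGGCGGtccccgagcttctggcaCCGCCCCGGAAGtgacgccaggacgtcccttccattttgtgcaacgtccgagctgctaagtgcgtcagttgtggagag
Srsf6 (chr2:162931258-162931557, plus strand): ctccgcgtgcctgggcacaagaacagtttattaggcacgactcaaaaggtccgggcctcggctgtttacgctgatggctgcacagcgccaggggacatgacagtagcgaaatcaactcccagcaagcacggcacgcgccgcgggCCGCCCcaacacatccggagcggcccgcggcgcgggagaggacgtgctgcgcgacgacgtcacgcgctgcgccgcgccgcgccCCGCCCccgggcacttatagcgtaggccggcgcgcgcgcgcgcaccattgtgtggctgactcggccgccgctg
All 4 hold a GC box and none holds TATAAA. Over the 28 members matched in RefSeq (build GRCm38.p6) the GC box was in 78.6% of promoters, against 65.1% of 9037 promoters of measured genes. CCAAT was in 57.1% of member promoters, against 39.5%. CCGGAAG stood in 21.4%, against 19.6%, and ATGGCGG in 21.4%, against 8.94%. The palindrome TGACGTCA (the CRE motif) was in 0 of the 28, against 3.39%, TATAAA in 14.3%, against 6.75%, and CACGTG in 14.3%, against 10.6%. All motifs were searched on both strands, an overlap of GGGCGG with CCGGAAG occurs in the Srsf5 promoter, and the member promoters were richer in G and C, with a median of 66.7% against 60.7%.

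Annotated transcripts that end in NMD were more frequent among these genes than among measured coding genes. GENCODE M21 lists at least 1 such transcript for 19 of the 30 members (63.3%), against 29.8% of 11312 measured coding genes. Among the SR genes it was 9 of 10 (Srsf10 has none), and among the Hnrnp genes 10 of 20. The deposited values count a whole gene, so productive and NMD transcripts are added together in every level below.

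The libraries held 6885680 to 11952088 reads, and every value was a level in CPM (reads scaled by the library total) after conversion from the deposited log2 scale. Mir155hg, the host transcript of miR-155, had 8 reads over the 5 miR-155 KO smoke libraries, 25 over miR-155 KO air, 48 over WT smoke and 2 over WT air. As the deleted stretch of the locus is not described, these reads are no check of the genotype. Markers of the sorted cell were present: all 14 alveolar macrophage markers were in the table and summed to 57932 to 66738 CPM in miR-155 KO smoke, 54039.7 to 59421 in miR-155 KO air, 57917 to 65985 in WT smoke and 54846 to 59005 in WT air. In the miR-155 KO air group, mice IIIb2, IIIb3 and IIIb4 stood apart. They had no read for 1645, 1524 and 1451 genes, where the other 17 libraries lacked 259 to 1224, so results on miR-155 KO air are also given without them. These mice were also among the shallowest, with 7422925, 6885680 and 8074431 reads. The 1224 genes were those of miR-155 KO smoke mouse IVa5, with 7336133 reads. The part of depth in the genes at 0 reads was not tested. Since these are bulk libraries, fewer cells of a kind and less RNA per cell cannot be told apart.

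With smoke, transcripts of this group were lower in both genotypes and none passed the test as higher. In miR-155 KO macrophages 10 of the 30 members fell and 0 rose, against a background of 8.45% of all 13225 genes called lower and 7.05% called higher. In WT macrophages 11 fell and 0 rose, where 12.8% of all genes were called lower and 9.66% higher. Members are well expressed, and among the 5570 genes whose mean log2 CPM was 5 or more the share called lower was 15.3% in miR-155 KO and 23.2% in WT, closer to the members' 33.3% and 36.7%. A call is a limma p adjusted over all genes under 0.05. Groups without overlap, every smoke library lower, were found for 4 members in miR-155 KO (5.34% of all genes) and for 6 in WT (10% of all genes). The number called lower in miR-155 KO was 3 without the 3 air mice that stood apart, 5 without smoke mouse IVa4 and 6 without smoke mouse IVa2 or air mouse IIIb1, and in WT it was 7 without smoke mouse IIb2. The mouse codes carry a letter, a or b, whose meaning the labels do not give, and with it as a covariate 5 members fell in miR-155 KO and 11 in WT.

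The size of the shift was small and spread over most members. In miR-155 KO, 26 of 30 log2 changes were below 0 and their median was -0.19, against -0.01 over all genes and -0.05 over the 5570 genes at that level. In WT, 24 of 30 were below 0 with a median of -0.14, against -0.02 and -0.06. Of all genes 51.3% were below 0 in miR-155 KO and 52.6% in WT, and of the 5570 genes 59.1% and 58.7%. By family, 4 of 10 SR and 6 of 20 Hnrnp genes fell in miR-155 KO, and 5 of 10 and 6 of 20 in WT. The changes ran from -0.45 to 0.47 in miR-155 KO and from -0.50 to 0.21 in WT, where 0.47 belongs to Srsf1, whose level rests on as few as 15 reads in a library.

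**Figure D1:**
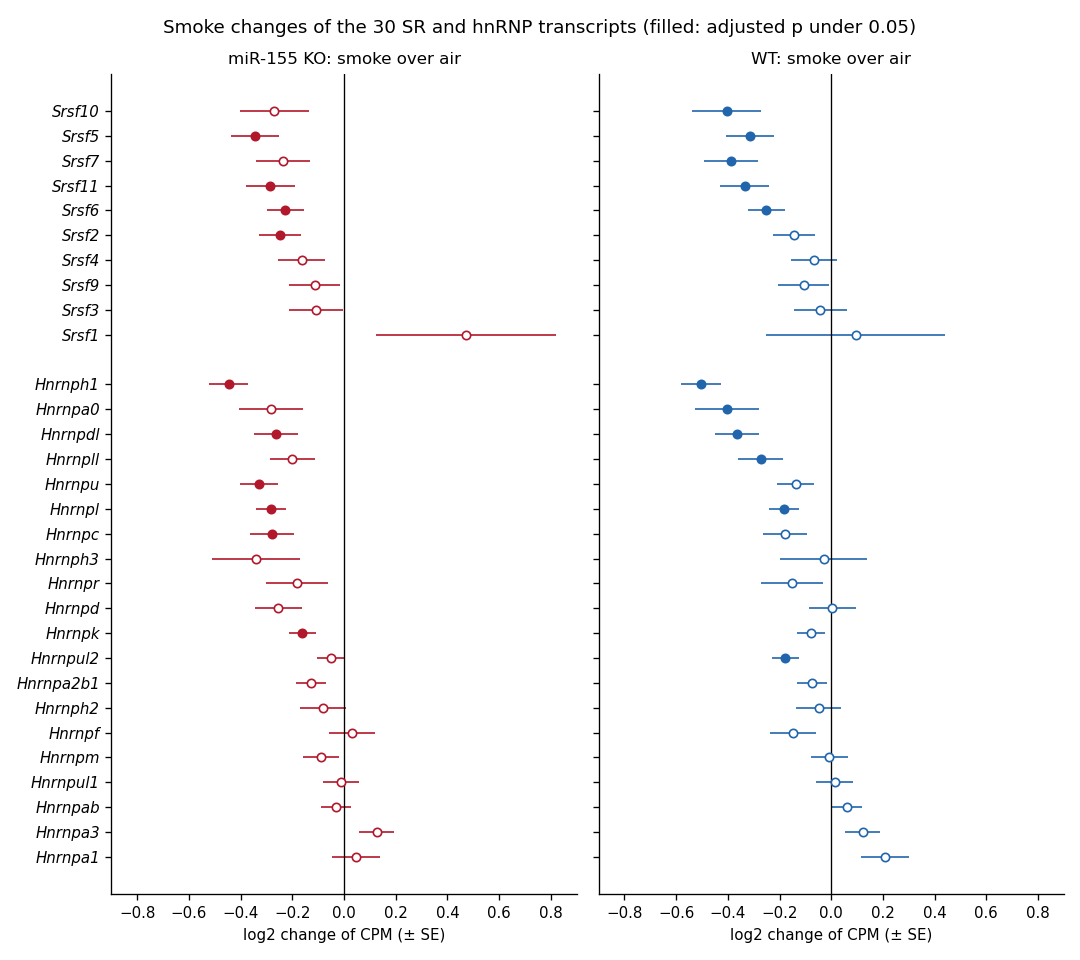
Log2 change of CPM with smoke for the 30 members in miR-155 KO (left panel) and WT (right panel), with SR genes above and Hnrnp genes below. Points are limma estimates, bars are standard errors with 5 mice per group, and filled points passed the adjusted p of 0.05; all 10 filled points in miR-155 KO and all 11 in WT lie below 0.

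The calls overlapped in part. Hnrnpdl, Hnrnph1, Hnrnpl, Srsf5, Srsf6 and Srsf11 fell in both genotypes, 60% of the miR-155 KO calls and 54.5% of the WT calls. Over all genes 778 were lower in both, which is 69.6% of the miR-155 KO and 46.0% of the WT lower calls. Hnrnpc, Hnrnpk, Hnrnpu and Srsf2 passed in miR-155 KO without passing in WT, and Hnrnpa0, Hnrnpll, Hnrnpul2, Srsf7 and Srsf10 in WT without passing in miR-155 KO. The smoke comparisons of the genotypes share no library, and 26 of 30 members had the same sign in both, 23 of them below 0. Across the 30 members the changes correlated with r = 0.69 (Spearman 0.69, and r = 0.67 without Hnrnph1 and Srsf1). Across all genes whose mean log2 CPM was 3 or more the r was 0.79.

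Among the SR genes, the clearest falls were in Srsf5 and Srsf6, classical SR proteins with a pair of RNA recognition motifs, and in Srsf11 and Srsf7. Values per library are given in the order of the mouse codes, IVa2, IVa4, IVa5, IVb2 and IVb4 for miR-155 KO smoke, IIIa5, IIIb1, IIIb2, IIIb3 and IIIb4 for miR-155 KO air, IIa1, IIa5, IIb1, IIb2 and IIb3 for WT smoke, and Ia3, Ia4, Ib1, Ib2 and Ib4 for WT air. Srsf5 (chr12:80945504-80950507) had 254, 262, 269.8, 266 and 279 CPM in miR-155 KO smoke, against 272, 321, 404, 389.5 and 319.8 in miR-155 KO air. It had 257, 314, 248, 265 and 261 CPM in WT smoke, against 381, 304, 276, 350.4 and 369.5 in WT air. The smoke libraries other than IIa5 were tightly grouped and the air libraries spread. The air mice IIIa5 in miR-155 KO, and Ia4 and Ib1 in WT, lay in the smoke range. Srsf5 fell by 21.3% in miR-155 KO (log2 change -0.34 ± 0.09, SE, n = 5 mice per group, limma adjusted p = 0.00979) and fell by 19.7% in WT (-0.32 ± 0.09, adjusted p = 0.0131). In WT, without mouse Ia3 the adjusted p was 0.0506, and without the 3 miR-155 KO air mice that stood apart the miR-155 KO change was -0.15 (adjusted p = 0.44).

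Srsf6 (chr2:162931528-162937121) had 165, 157, 191, 193 and 189 CPM in miR-155 KO smoke, against 198, 229, 206, 213 and 200.1 in miR-155 KO air. It had 188, 215, 178, 179.7 and 187 CPM in WT smoke, against 239, 212, 209.9, 228 and 237 in WT air. Every miR-155 KO smoke library lay below every miR-155 KO air library, and in WT the smoke mouse IIa5 reached into the air range. Srsf6 fell by 14.6% in miR-155 KO (-0.23 ± 0.07, adjusted p = 0.0278) and fell by 16.0% in WT (-0.25 ± 0.07, adjusted p = 0.0103). In miR-155 KO, without any 1 of mice IIIb1, IVa2 and IVa4 the adjusted p was 0.0813 to 0.105. It was 0.107 without the 3 air mice that stood apart and 0.0556 with the letter of the mouse code as a covariate.

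Srsf11 (chr3:158010473-158036639), an arginine-serine-rich factor that binds U2AF, had 109.8, 125, 118, 163 and 129.9 CPM in miR-155 KO smoke, against 144, 157, 155, 186 and 143 in miR-155 KO air. It had 120.1, 139.9, 127, 104 and 109 CPM in WT smoke, against 142, 158, 151, 160.2 and 143 in WT air. The WT groups did not overlap, while the miR-155 KO smoke mouse IVb2 lay within the air range. Srsf11 fell by 17.9% in miR-155 KO (-0.29 ± 0.09, adjusted p = 0.0374) and fell by 20.7% in WT (-0.34 ± 0.09, adjusted p = 0.00959). The WT call held with every library left out in turn, but in miR-155 KO without any 1 of mice IIIb1, IIIb2, IIIb3, IVa2, IVa4, IVa5 and IVb4 the adjusted p was 0.0538 to 0.122. There it was 0.278 without the 3 air mice that stood apart and 0.0842 with the letter as a covariate.

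Srsf7 (chr17:80200080-80207307), an SR protein with a zinc knuckle that also carries mRNA to the export receptor, had 70.7, 81.7, 87.5, 85.2 and 67.5 CPM in miR-155 KO smoke, against 94.5, 98.6, 70.9, 93.4 and 106 in miR-155 KO air. It had 75.4, 78.7, 83.3, 79.9 and 72.5 CPM in WT smoke, against 104, 84.0, 92.7, 111 and 122 in WT air. The WT groups did not overlap, and the miR-155 KO groups did, through the low air mouse IIIb2. Srsf7 fell by 23.6% in WT (-0.39 ± 0.11, adjusted p = 0.00708), and the log2 change in miR-155 KO was -0.23 ± 0.11 (adjusted p = 0.136). The difference between the genotypes' responses was 0.15 ± 0.15 with an adjusted p of 0.775.

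Of the other SR genes, Srsf10, a repressor of splicing when dephosphorylated, in WT fell by 24.4% (-0.40 ± 0.13, adjusted p = 0.0281), but without any 1 of mice Ia4, Ib1, IIb1, IIb2 and IIb3 the adjusted p was 0.0502 to 0.105. Srsf2, the speckle protein SC35, in miR-155 KO fell by 15.8% (-0.25 ± 0.08, adjusted p = 0.0362); without any 1 of mice IIIb2, IIIb3, IVa2 and IVa4 the adjusted p was 0.0808 to 0.142, and without the 3 air mice that stood apart the change was -0.10 (adjusted p = 0.608). With the letter as a covariate the adjusted p of Srsf2 was 0.106. Srsf3, the smallest SR protein and an mRNA export adaptor, was at 93.4 to 130.0 CPM in miR-155 KO smoke and 103 to 133 in miR-155 KO air, and at 91.9 to 140.3 in WT smoke and 105 to 119 in WT air. Srsf1, Srsf3, Srsf4 and Srsf9 passed the test in neither genotype. Srsf1, the founding member of the family, was the least abundant of all 30 at a mean of 8.33 CPM.

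Among the hnRNPs the largest fall was in Hnrnph1 (chr11:50376990-50386528), which binds runs of G near splice sites. It had 235, 259.8, 261, 306 and 292 CPM in miR-155 KO smoke, against 333, 345, 372, 414 and 377 in miR-155 KO air. It had 269, 316, 242, 241 and 265 CPM in WT smoke, against 388, 391, 376, 366 and 360.2 in WT air. In both genotypes every smoke library lay below every air library. Hnrnph1 fell by 26.6% in miR-155 KO (-0.45 ± 0.08, adjusted p = 0.000103) and fell by 29.5% in WT (-0.50 ± 0.08, adjusted p = 1.30e-05). Both calls held under all 35 alternative settings, including the miR-155 KO comparison without the air mice that stood apart (-0.33, adjusted p = 0.0297). Its closest relatives passed in neither genotype: Hnrnph2, encoded on the X chromosome, had log2 changes of -0.08 ± 0.09 in miR-155 KO and -0.05 ± 0.09 in WT, and Hnrnpf 0.03 ± 0.09 and -0.15 ± 0.09. Whether the paralogs differ from Hnrnph1 was not tested.

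Hnrnpl (chr7:28808541-28822266), which binds CA repeats, had 217, 215, 208, 233 and 220.4 CPM in miR-155 KO smoke, against 274, 266, 249, 287 and 255 in miR-155 KO air. It had 218, 230.0, 241, 227 and 239 CPM in WT smoke, against 281, 266, 249, 262 and 252 in WT air. Neither genotype's groups overlapped. Hnrnpl fell by 17.7% in miR-155 KO (-0.28 ± 0.06, adjusted p = 0.000887), a call that held under all 35 alternatives, and fell by 11.8% in WT (-0.18 ± 0.06, adjusted p = 0.0233). In WT, without any 1 of mice Ia3, IIa1 and IIb2 the adjusted p was 0.0518 to 0.0762. Its paralog Hnrnpll, known in T cells for removing variable exons of Ptprc (CD45), in WT fell by 17.2% (-0.27 ± 0.09, adjusted p = 0.0233), but without any 1 of mice Ia3, Ia4, IIb1 and IIb2 the adjusted p was 0.0617 to 0.0755. The log2 change in miR-155 KO was -0.20 ± 0.09 (adjusted p = 0.125).

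Hnrnpdl (chr5:100033577-100039664), a relative of the AU-rich element binding protein Hnrnpd, had 101, 111, 115, 138 and 126 CPM in miR-155 KO smoke, against 137, 141, 124, 149.7 and 153 in miR-155 KO air. It had 121, 152, 119, 117 and 118 CPM in WT smoke, against 161, 144, 165, 171 and 164 in WT air. In WT all smoke libraries but IIa5 lay below the air range, and in miR-155 KO mice IVb2 and IVb4 lay within it. Hnrnpdl fell by 16.6% in miR-155 KO (-0.26 ± 0.09, adjusted p = 0.0359) and fell by 22.3% in WT (-0.36 ± 0.09, adjusted p = 0.00221). The WT call held under all 35 alternatives, but in miR-155 KO without any 1 of mice IIIb1, IIIb3, IIIb4, IVa2, IVa4 and IVa5 the adjusted p was 0.0573 to 0.123. The miR-155 KO value was 0.192 without the 3 air mice that stood apart and 0.0844 with the letter as a covariate.

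**Figure D2:**
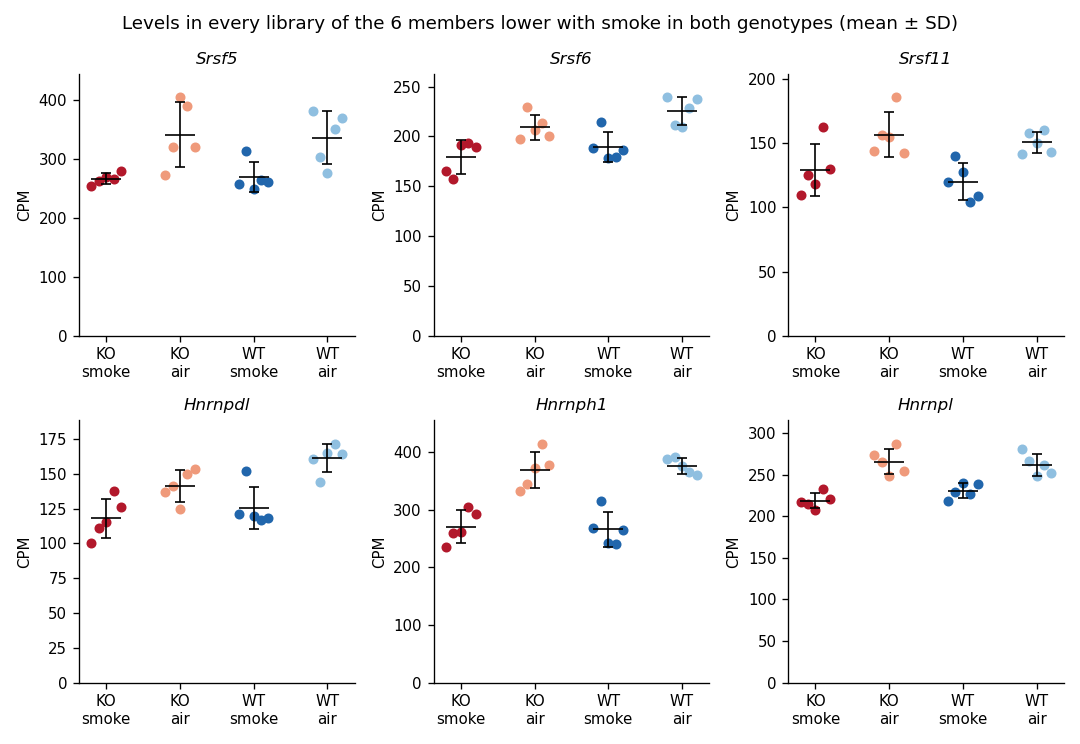
CPM in every library (points), with the mean and SD of 5 mice per group (black), for the 6 members that fell with smoke in both genotypes; each panel starts at 0 and shows miR-155 KO smoke, miR-155 KO air, WT smoke and WT air. Hnrnph1 and Hnrnpl have smoke libraries wholly below the air libraries in both genotypes, Srsf6 in miR-155 KO and Srsf11 in WT.

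Hnrnpu (chr1:178321108-178337797), the scaffold attachment factor that links RNA to chromatin, had 169, 135, 158, 157 and 142 CPM in miR-155 KO smoke, against 166, 196, 199, 194 and 199.9 in miR-155 KO air. It had 154, 160.2, 161, 156 and 159 CPM in WT smoke, against 184, 180.1, 148, 179 and 181 in WT air. In each genotype 1 air library was low: IIIa5 lay within the miR-155 KO smoke range and Ib1 below all WT smoke libraries. Hnrnpu fell by 20.4% in miR-155 KO (-0.33 ± 0.07, adjusted p = 0.00192; 0.112 without the air mice that stood apart), and in WT its log2 change was -0.14 ± 0.07 (adjusted p = 0.192). The difference of the responses was -0.19 ± 0.10 (95% interval -0.40 to 0.02) with an adjusted p of 0.566.

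Hnrnpc (chr14:52073377-52104028), which binds runs of U and masks cryptic exons, had 147, 172, 145, 138 and 136 CPM in miR-155 KO smoke, against 188, 187, 203, 161 and 157 in miR-155 KO air. It had 149, 128, 164, 159 and 168 CPM in WT smoke, against 161, 169, 161, 184 and 192 in WT air. The groups overlapped in both genotypes. Hnrnpc fell by 17.5% in miR-155 KO (-0.28 ± 0.09, adjusted p = 0.0243) and had a log2 change of -0.18 ± 0.09 in WT (adjusted p = 0.14). In miR-155 KO, without any 1 of mice IIIa5, IIIb1, IIIb2, IVb2 and IVb4 the adjusted p was 0.0501 to 0.0762, and with the letter as a covariate it was 0.0518.

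Of the remaining hnRNP calls, Hnrnpk, which binds C-rich stretches through KH domains, in miR-155 KO fell by 10.6% (-0.16 ± 0.05, adjusted p = 0.0383), with smoke libraries at 376 to 409 CPM and air libraries at 425 to 471. The groups did not overlap, but without any 1 of mice IIIb2, IIIb4, IVa4, IVb2 and IVb4 the adjusted p was 0.0517 to 0.1, and without the 3 air mice that stood apart it was 0.337. Hnrnpa0, which binds AU-rich elements and is phosphorylated in stimulated macrophages, in WT fell by 24.4% (-0.40 ± 0.12, adjusted p = 0.0176), with 62.1 to 83.4 CPM in smoke and 85.1 to 116 in air; without any 1 of mice Ia4, IIb1 and IIb2 the adjusted p was 0.0543 to 0.0709. Hnrnpul2, a relative of Hnrnpu, in WT fell by 11.6% (-0.18 ± 0.05, adjusted p = 0.0155), with 245 to 277 CPM in smoke and 282 to 300.1 in air; without mouse IIa1 the adjusted p was 0.0505.

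In miR-155 KO the calls of Srsf2, Srsf6, Srsf11, Hnrnpc, Hnrnpdl and Hnrnpk also ended under both other scalings and without the mean trend in the variance prior. Their adjusted p was 0.0953 to 0.202 after quantile normalization, 0.083 to 0.204 after median centring and 0.0504 to 0.0865 without the trend. Fitting the compared groups alone ended all of these but Hnrnpc (0.0661 to 0.108). In WT, quantile normalization ended the calls of Srsf6, Hnrnpl, Hnrnpll and Hnrnpul2 (0.0818 to 0.16), and a prior without the trend those of Srsf5, Srsf10, Hnrnpa0 and Hnrnpll (0.0503 to 0.0688). Median centring ended those of Hnrnpl and Hnrnpul2 in WT (0.0631 to 0.0723), and removing the length trend those of Hnrnpll and Hnrnpul2 (0.0639 to 0.182). Array weights ended the miR-155 KO calls of Srsf2, Srsf11 and Hnrnpk (0.0509 to 0.0935), and voom weights those of Srsf2 and Srsf11 (0.0539 to 0.056).

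The hnRNP A genes other than Hnrnpa0 did not pass the test. Hnrnpa2b1 (chr6:51460932-51469894), the most abundant member by CPM, had 578, 681, 653, 695 and 635 CPM in miR-155 KO smoke, against 728, 695, 722, 669 and 718 in miR-155 KO air. It had 686, 739.8, 713, 637 and 653 CPM in WT smoke, against 697, 762, 721, 719 and 709 in WT air. The ranges overlapped in both genotypes, and its log2 changes were -0.13 ± 0.06 in miR-155 KO (adjusted p = 0.149) and -0.07 ± 0.06 in WT (adjusted p = 0.403). Hnrnpa1, the classical antagonist of Srsf1 in 5-prime splice site choice, had changes of 0.05 ± 0.09 and 0.21 ± 0.09, and Hnrnpa3 0.13 ± 0.07 and 0.12 ± 0.07. In WT these values depended on scaling: after quantile normalization 2 members rose (Hnrnpa1 and Hnrnpa3, adjusted p = 0.0211 and 0.0386) and 7 fell, in place of 0 and 11. Without WT smoke mouse IIb3 Hnrnpa3 also passed as higher (adjusted p = 0.0431), as it did with a trend over transcript length removed (adjusted p = 0.0263), and Hnrnpa1 passed as higher in WT when the 3 miR-155 KO air mice that stood apart did not enter the shared variance (adjusted p = 0.0413). GENCODE lists 28 other genes with a stretch at least 95% identical to Hnrnpa3 over 200 bases or more and 9 for Hnrnpa1, so reads of these 2 genes may have been split in counting.

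Summed over the family, the SR genes made up 1142 ± 86.9 CPM in miR-155 KO smoke and 1356 ± 124 in miR-155 KO air (SD, n = 5 each), and 1143 ± 82.0 in WT smoke and 1349 ± 75.0 in WT air. The Hnrnp genes summed to 3937 ± 137 CPM in miR-155 KO smoke and 4351 ± 88.0 in miR-155 KO air, and to 4116 ± 122 in WT smoke and 4427 ± 90.1 in WT air. Together the 30 genes took 0.479% to 0.536% of reads in miR-155 KO smoke and 0.543% to 0.598% in miR-155 KO air, without overlap. In WT the shares were 0.507% to 0.561% in smoke and 0.556% to 0.589% in air, which overlapped. The median log2 CPM of a library over the 8907 genes whose mean log2 CPM was 3 or more was 5.47 to 5.54 in miR-155 KO smoke and 5.54 to 5.57 in miR-155 KO air, and 5.51 to 5.55 in WT smoke and 5.56 to 5.57 in WT air. In both genotypes every smoke library lay below every air library in this median. Centring every library on that median left 4 members lower in miR-155 KO and 9 in WT, with 0 higher in both, and the median change over all 13225 genes was then 0.04 in miR-155 KO and 0.01 in WT. The members' median change was then -0.14 in miR-155 KO and -0.11 in WT, in place of -0.19 and -0.14. After quantile normalization it was -0.13 and -0.06, against -0.005 and -0.02 over all genes. The part of the library median in the shift of the members was not otherwise tested.

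**Figure D3:**
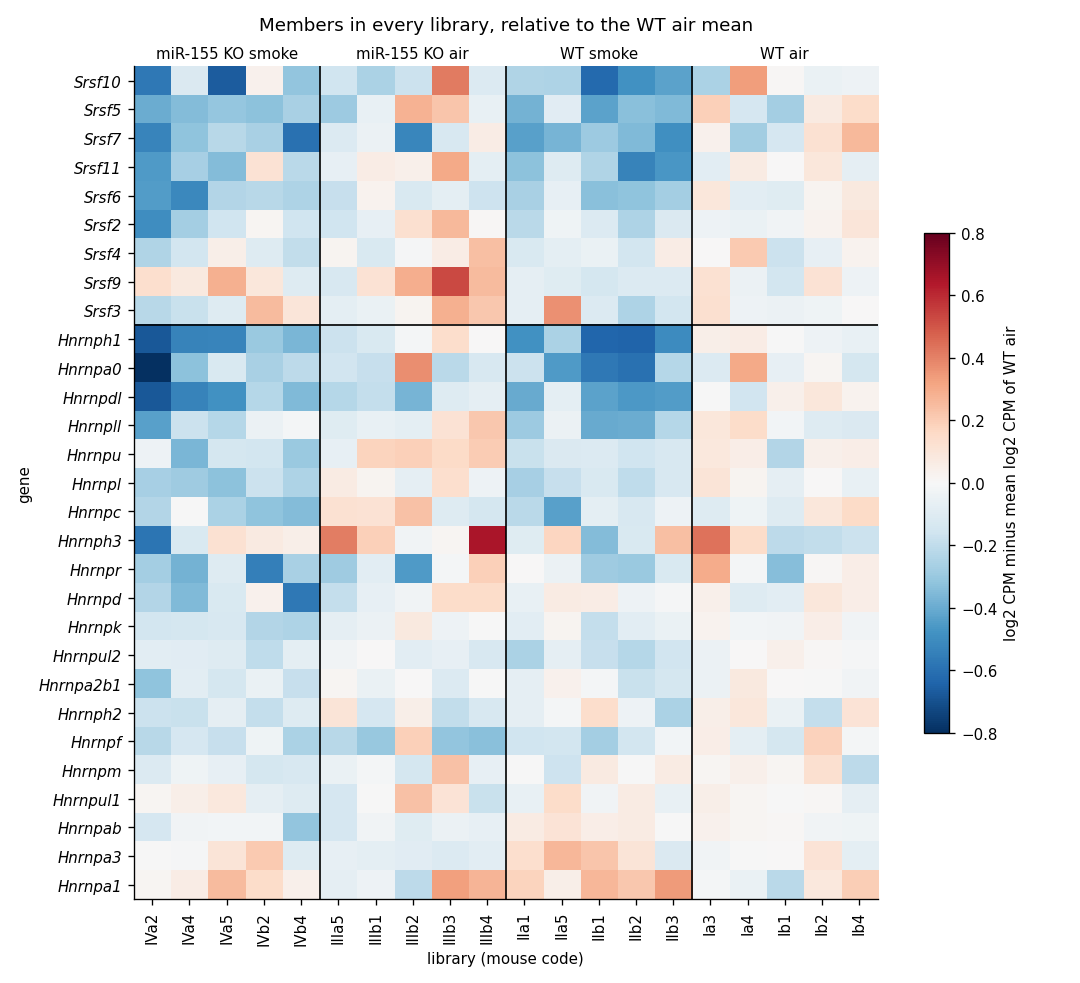
Log2 CPM of 29 members in each of the 20 libraries, relative to the mean of the WT air group (blue lower, red higher, colour scale from -0.8 to 0.8); columns are mice grouped as miR-155 KO smoke, miR-155 KO air, WT smoke and WT air, and Srsf1 is left out because its low level gives values beyond the scale. The blue cells of Hnrnph1 run through all 10 smoke columns, while the lower rows (Hnrnpab, Hnrnpa3, Hnrnpa1) show no such block.

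Per kilobase of annotated exon the highest levels were those of Hnrnpab (110.2 CPM per kilobase), Hnrnpa2b1 (105), Srsf5 (76.0), Srsf2 (68.7) and Hnrnpk (66.0), and the lowest those of Srsf1 (1.46) and Hnrnpr (2.50). Per kilobase of the median coding transcript the order changed, with Hnrnpk (448), Hnrnpa2b1 (421), Hnrnpa3 (208), Srsf5 (202) and Hnrnpab (152) on top and Srsf1 last again.

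No member passed the test between miR-155 KO and WT, in smoke or in air. In smoke 0 of 30 passed in limma between miR-155 KO and WT, against 1.58% of all genes. In air 0 of 30 were called, against 0.416% of all genes. At an unadjusted p under 0.05 there were 3 members in smoke, against 1786 of all 13225 genes. In air there were 3 members at that level, against 1537 of all genes. The median log2 change of the members was -0.06 in smoke and -0.01 in air, against -0.02 and -0.04 over all genes.

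The smallest p in smoke belonged to Hnrnpab (chr11:51600100-51606847), an hnRNP A/B protein known to carry mRNA along the cytoskeleton. It had 285, 307, 307, 308 and 251 CPM in miR-155 KO smoke, against 327, 336, 324, 327 and 312 in WT smoke. In air it had 284, 307, 292, 303 and 299 CPM in miR-155 KO, against 320.4, 316, 314, 306 and 305 in WT. Every miR-155 KO smoke library lay below every WT smoke library, 1 of 30 members against 2.54% of all genes, while the air groups overlapped. The log2 change in smoke was -0.16 ± 0.06 (95% interval -0.28 to -0.04, limma adjusted p = 0.163).

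Hnrnpd (chr5:99955935-99978938), also known as AUF1, which binds AU-rich elements of cytokine transcripts and promotes their decay, had 85.4, 78.6, 92.3, 103 and 67.6 CPM in miR-155 KO smoke, against 96.6, 106, 105, 97.9 and 99.9 in WT smoke. In air it had 88.3, 96.2, 98.6, 111 and 112 CPM in miR-155 KO, against 104, 93.8, 94.8, 107 and 104 in WT. The smoke groups overlapped through mouse IVb2, with IVb4 the lowest of all 20 libraries. The log2 change was -0.26 ± 0.09 in smoke (adjusted p = 0.166) and 0.00 ± 0.09 in air. With each library weighted by its fit to the model, Hnrnpd and Hnrnpab passed as lower in miR-155 KO smoke (adjusted p = 0.013 and 0.0292), the only setting of 35 in which a member was called between genotypes.

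Srsf9, a short SR protein, was higher in miR-155 KO by the point estimate in both exposures without passing the test. It had 71.4, 68.7, 79.3, 69.4 and 60.6 CPM in miR-155 KO smoke, against 61.7, 60.8, 58.9, 60.2 and 60.3 in WT smoke. In air it had 59.4, 70.3, 79.5, 94.0 and 77.5 CPM in miR-155 KO, against 70.8, 63.1, 58.6, 70.4 and 63.1 in WT. The log2 changes were 0.20 ± 0.10 in smoke (adjusted p = 0.363) and 0.21 ± 0.10 in air (adjusted p = 0.411), and without the 3 air mice that stood apart the air value was -0.01. Hnrnpdl, whose libraries are given above, had a change of -0.19 ± 0.09 in air (adjusted p = 0.385), or -0.21 without the 3 air mice that stood apart (0.755). Hnrnpf had 99.3, 93.8, 132, 93.4 and 92.1 CPM in miR-155 KO air, against 120.2, 109.9, 105, 132 and 115 in WT air. In smoke it had 99.6, 106, 102, 114 and 97.3 CPM in miR-155 KO, against 104, 105, 96.2, 105 and 115 in WT. All miR-155 KO air libraries of Hnrnpf but IIIb2 were below the WT air range, with a change of -0.20 ± 0.09 (adjusted p = 0.387), or -0.27 without the 3 air mice that stood apart (0.523).

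The 6 members with a miR-155 seed match had genotype changes of -0.16 to -0.02 in smoke (median -0.08) and of -0.39 to 0.13 in air (median -0.11), where -0.39 is the low Srsf1. None was called, and the members with an 8mer had -0.08 ± 0.06 (Hnrnpa2b1) and -0.08 ± 0.07 (Hnrnpa3) in smoke.

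The response to smoke was not shown to differ between the genotypes for any member. In the limma test of the difference of the responses 0 of 30 members were called, against 0.0% of all 13225 genes. At an unadjusted p under 0.05 there were 0 members, against 1302 of all genes. The smallest p belonged to Hnrnpd, with a difference of -0.26 ± 0.13 (95% interval -0.52 to 0.01, adjusted p = 0.524). For Hnrnph1 the difference was 0.06 ± 0.11, with an interval of -0.17 to 0.28. The median SE of the differences was 0.12, so these data cannot show a small difference between the genotypes for members called in 1 of them.

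Within the groups the members varied together in part. After subtracting the group means, the median r over all 435 pairs of members across the 20 libraries was 0.11, with 12.2% of pairs over 0.5, against 0.01 and 3.96% over pairs of all genes whose mean log2 CPM was 5 or more. Among SR pairs the median was 0.21 and among Hnrnp pairs 0.05. The tightest pair was Srsf3 and Hnrnph1 (r = 0.91, Spearman 0.87, and r = 0.84 without mice IIa5 and IVb2, the farthest in Srsf3). Hnrnpll followed Hnrnph1 with r = 0.87, and Hnrnpdl followed Srsf3 with r = 0.84, or 0.68 without the same mice. Hnrnpc ran the other way, with r = -0.74 to Srsf3 and -0.65 to Hnrnph1. The points share library, depth and composition, and the library measures moved less closely: Srsf3 had r = -0.16 with total reads and 0.38 with the number of genes at 0 reads, and Hnrnph1 -0.20 and 0.48. Their part in the shared variation was not tested.

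**Figure D4:**
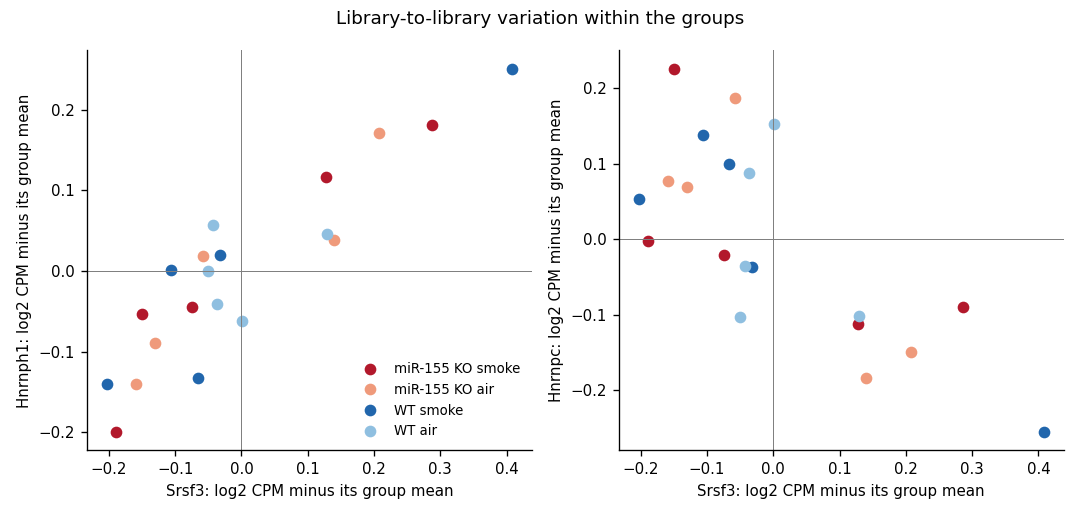
Deviation of log2 CPM from the group mean in the 20 libraries, Srsf3 on the horizontal axis and Hnrnph1 (left) or Hnrnpc (right) on the vertical axis, coloured by group. Libraries high in Srsf3 are high in Hnrnph1 (r = 0.91) and low in Hnrnpc (r = -0.74).

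Counts for other genes of the splicing pathway are to be read against the 8.45% called lower and 7.05% called higher over all genes in miR-155 KO, and 12.8% and 9.66% in WT, and no list was tested against another. Of 23 SR-related proteins, 7 fell and 0 rose in miR-155 KO and 9 fell and 1 rose in WT. Son and Srrm2, which hold nuclear speckles together, fell by 0.32 and 0.34 on the log2 scale in miR-155 KO and by 0.37 and 0.46 in WT (limma adjusted p = 8.15e-05 and 0.000156 in miR-155 KO, 8.58e-06 and 1.48e-06 in WT). Of 22 measured hnRNPs with other symbols, 4 fell and 1 rose in miR-155 KO and 9 fell and 2 rose in WT. Tardbp (TDP-43) fell by 0.30 in miR-155 KO and by 0.26 in WT, and Rbm3, the cold-induced RNA-binding protein, rose by 0.35 and 0.49. Of 17 other splicing regulators, 3 fell in miR-155 KO and 7 in WT, led by the helicases Ddx5 (-0.39 in miR-155 KO and -0.49 in WT) and Ddx17 (-0.27 and -0.37). The median log2 change of these 17 genes was 0.04 in miR-155 KO, with 8 below 0, and -0.31 in WT, with 16 below 0.

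Of 12 measured kinases and phosphatases that act on SR tails, 1 (8.33%) fell in miR-155 KO (Clk3, -0.51) and 3 (25.0%) fell in WT (Clk1, Prpf4b and Ppp1cb, -0.59, -0.40 and -0.44). Of 9 nuclear import and arginine methylation genes, 2 fell in miR-155 KO (Prmt6 and Carm1, methyltransferases) and 0 in WT, where 0 also rose. Of 10 Sm and U1 genes 2 fell in miR-155 KO and 1 in WT, Snrnp70 in both (-0.33 and -0.29). Of 18 U2 genes 3 fell in miR-155 KO, and 2 fell and 1 rose in WT, with the branch point factor Sf3b1 lower in both (-0.31 and -0.38). Of 22 tri-snRNP genes 2 fell in miR-155 KO and 1 rose in WT. Of 20 Prp19 complex and step factors 5 fell in miR-155 KO, and 3 fell and 1 rose in WT. With smoke the median log2 change of the Sm and U1 genes was 0.01 in miR-155 KO and 0.16 in WT. It was -0.06 and 0.06 for the U2 genes, 0.02 and 0.13 for the tri-snRNP genes, and -0.09 and 0.002 for the Prp19 list. Below 0 in miR-155 KO and WT were 4 and 2 of 10 Sm and U1 genes and 14 and 7 of 18 U2 genes. Of the 22 tri-snRNP genes 10 and 6 were below 0, and of the 20 Prp19 genes 15 and 10. Of 15 exon junction and NMD genes 1 fell and 1 rose in miR-155 KO and 2 fell in WT, where the NMD helicase Upf1 fell in both (-0.27 and -0.32). The U2 genes in WT (11.1% lower) and the tri-snRNP genes in miR-155 KO (9.09%) had shares near those of all genes. The same held for the exon junction and NMD genes (6.67% in miR-155 KO and 13.3% in WT). It also held for the kinases and phosphatases in miR-155 KO (8.33%). In WT the shares lower of the Sm and U1 genes (1 of 10) and the Prp19 list (3 of 20) were likewise near that of all genes. Between genotypes, 0 genes of these splicing lists were called in air or in smoke.

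**Figure D5:**
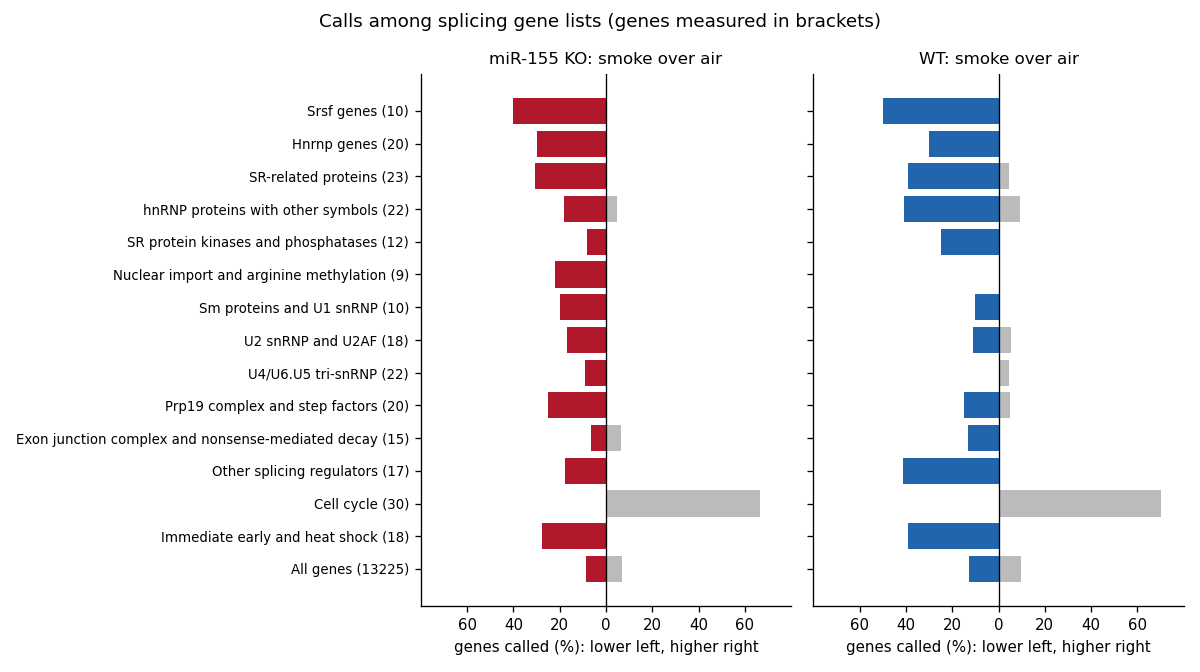
Share of measured genes called lower (coloured, to the left) and higher (grey, to the right) with smoke, by gene list and for all genes, in miR-155 KO (left panel) and WT (right panel). SR and Hnrnp genes have coloured bars only, and the cell cycle list has grey bars only, with 20 of 30 genes higher in miR-155 KO and 21 of 30 in WT.

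Other lists moved with smoke beside the members. Cell cycle genes summed to 2141 to 2834 CPM in miR-155 KO smoke and 1600.0 to 1816 in miR-155 KO air, and to 2457 to 2624 in WT smoke and 1608 to 1764 in WT air. Of 18 measured immediate early and heat shock genes, which sorting can induce, 5 fell and 0 rose in miR-155 KO and 7 fell and 0 rose in WT. Neutrophil markers (5 of 8 measured) summed to 139 to 314 CPM in miR-155 KO smoke and 86.1 to 134 in miR-155 KO air, and to 159 to 357 in WT smoke and 90.3 to 129 in WT air. They did not move as 1, as 3 rose and 1 fell in each genotype. Mmp8 rose by 2.42 on the log2 scale in miR-155 KO and by 2.34 in WT, while Csf3r changed by -1.59 and -1.69. Dendritic cell markers (6 of 8 measured) summed to 195 to 226 CPM in miR-155 KO smoke and 121 to 167 in miR-155 KO air, and to 215 to 364 in WT smoke and 138 to 164 in WT air. These sums are small beside the alveolar macrophage markers. Of those 14 markers 4 rose and 4 fell with smoke in miR-155 KO, and 3 rose and 4 fell in WT. Car4 changed by 1.09 on the log2 scale in miR-155 KO and 1.52 in WT, and Ear2 by -1.35 and -1.33. Between genotypes 1 of these 14 markers was called, Car4, at -0.35 in miR-155 KO smoke against WT smoke (limma adjusted p = 0.042). From the neutrophil list S100a8 was called lower in miR-155 KO air against WT air (-1.48, limma adjusted p = 0.0347). The immediate early gene Egr1 was called lower in miR-155 KO smoke against WT smoke (-2.21, limma adjusted p = 0.0182). The 2 measured genes of the eosinophil list (of 6) summed to 119 to 161 CPM in miR-155 KO smoke and 71.2 to 123 in miR-155 KO air, and to 126 to 193 in WT smoke and 72.0 to 82.2 in WT air. Of them Ear6 rose by 3.24 on the log2 scale in miR-155 KO and rose by 2.87 in WT, while Siglece fell in both. The 10 measured monocyte and interstitial macrophage genes (of 12) summed to 175 to 216 CPM in miR-155 KO smoke and 222 to 268 in miR-155 KO air, and to 186 to 322 in WT smoke and 206 to 240.4 in WT air. Of these 2 fell in miR-155 KO and 2 fell in WT, and the complement genes C1qa and C1qb rose in WT. The 2 measured T and NK cell genes (of 8) summed to 0.642 to 6.08 CPM in miR-155 KO smoke and 0 to 1.26 in miR-155 KO air, and to 7.47 to 41.2 in WT smoke and 0.571 to 1.71 in WT air. Il7r rose in both genotypes and Cd4 in WT. The 7 measured epithelial genes (of 10) summed to 167 to 207 CPM in miR-155 KO smoke and 192 to 277 in miR-155 KO air, and to 179 to 229 in WT smoke and 182 to 246 in WT air. Of these 1 rose and 2 fell in miR-155 KO, and 3 rose and 2 fell in WT, where Epcam fell by 1.64 in miR-155 KO and fell by 2.13 in WT. The 2 measured endothelial and stromal genes (of 6) summed to at most 2.87 CPM in any library, and Kdr rose in WT. S100a9 had 0 reads in both air groups, Ly6c2 and C1qa in WT air, and Ly6g, Cd3e and the 4 B cell markers were not analysed here. The part of these lists in the members' changes was not tested.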

How the data were processed

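The authors deposited log2 CPM per gene (reads scaled by the library total, on a log2 scale); per the submitters' processing notes, alignment was by STAR 2.6.0c to GRCm38.p6 and limma was used. The labels' protocols name the miRNeasy Mini kit and a poly-A TruSeq mRNA preparation from 25 ng of RNA. Counting tool, strand setting, annotation and low-count filter were not given in the sources used here. As deposited, the log2 values follow the voom formula (0.5 reads and a total of 1 added), and 100.0% gave back whole reads within a tolerance of 0.001, which supplied depth and CPM.

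The main fit was limma 3.58.1 (R 4.3.3) on the deposited log2 values of all 13225 genes and 20 libraries, with a mean per group and a trended empirical Bayes variance. Its 5 contrasts were smoke against air in each genotype, genotype in each exposure, and the difference of responses. P values are 2-sided and Benjamini-Hochberg adjusted over all genes. Errors are limma standard errors for log2 changes and SDs over the 5 mice elsewhere. The labels give each library its own mouse code. The script was tested on simulated data.

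Given per library are, per pairwise contrast, the called members of lowest p, at most 6 (3 where fewer passed), and the most abundant member; lists name up to 3 called genes each. Members and lists were chosen with earlier results of these data known. Coordinates, transcripts and 3-prime UTRs come from GENCODE M21 (GRCm38), and miRNA and promoter sequences from RefSeq. Copies were found with blastn 2.17.0. The rest was done in Python 3.11.15 (scipy 1.17.1, pandas 2.3.3, matplotlib 3.10.9, numpy 2.4.6). The first 34 alternatives were other variance priors, low-value filters, pseudocounts, scalings, weights, covariates and samples. A block on the letter and digit of the mouse codes was added after seeing the data.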

Additional observations from a re-analysis of the deposited data

Results flagged for a closer look

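In each group of 5, a library was marked where its gap to the nearest other library exceeded Dixon's 95% critical value. Of 120 groups examined (30 members in 4 groups) 11 were marked, where chance marks about 1 in 20. WT smoke mouse IIa5 was high in 4 of them: Srsf3 at 140.3 CPM (the others 91.9 to 103), Srsf5 at 314 (248 to 265), Srsf6 at 215 (178 to 188) and Hnrnpdl at 152 (117 to 121). Among the miR-155 KO air mice that stood apart in genes at 0 reads, IIIb3 was high in Srsf10 at 95.7 CPM (60.2 to 66.6), and IIIb2 in Hnrnpa0 at 122 (80.7 to 86.0) and Hnrnpf at 132 (92.1 to 99.3). Hnrnpu was low in miR-155 KO air mouse IIIa5 at 166 CPM (194 to 199.9) and in WT air mouse Ib1 at 148 (179 to 184). Hnrnpul2 was low in miR-155 KO smoke mouse IVb2 at 254 CPM (272 to 276), and Srsf3 was high in WT air mouse Ia3 at 119 (105 to 109). No member's response to smoke was shown to differ between the genotypes.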

How the results depend on the processing

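The number of members called with smoke depended on the setting, more so in miR-155 KO. In place of 10 in miR-155 KO and 11 in WT, a variance prior without a mean trend gave 4 and 7. In miR-155 KO quantile normalization gave 4, median centring 4, a fit of the compared groups only 5, the letter of the mouse code as a covariate 5, and leaving out IIIb2, IIIb3 and IIIb4 gave 3 (Hnrnph1, Hnrnpl and Hnrnpc). Leaving out 1 mouse gave 5 to 10 in miR-155 KO and 7 to 11 in WT. Array weights called 2 members in miR-155 KO smoke against WT smoke, and otherwise the genotype comparisons and the difference of responses stayed at 0, also with 1 mouse left out (0 to 0). Of 945 recomputed values of the named members 830 kept direction and side of the threshold, 112 lost the call, 2 gained it, and 1 changed sign (Srsf9 in miR-155 KO air against WT air, -0.0089 without IIIb2, IIIb3 and IIIb4). Causes were not tested, except that the last setting leaves 2 air libraries. Depth limits Srsf1, with 15 reads in its lowest library. Members with near-identical copies, or sharing exons with neighbours (Hnrnpm with March2), may have lost or gained reads in counting. Members called with smoke are among them. Stretches at least 95% identical to other genes, measured ones included, covered 39.4% of the longest coding transcript of Srsf2, 51.7% of Srsf5 and 46.4% of Hnrnpk. Without the Roman numeral of its group, 6 of the 9 mouse codes recur between groups, and the labels do not say that a code marks a shared litter, batch or day. Deviations from the group means correlated with r = -0.12 to 0.07 over the 17 pairs of libraries with the same code (0 over 0.1), and 2 of 17 libraries correlated best with their own code, so the codes were not taken as pairs. A replicate block on the code, chosen after seeing the data, left 8 residual degrees of freedom and called 3 members in miR-155 KO and 5 in WT, all lower, and 0 between genotypes or in the difference of responses.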

Other observations

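The axis on which Srsf3 and Hnrnph1 varied within groups was also followed by genes outside the splicing families. Ranked by r with the mean deviation of these 2 genes across the 20 libraries, among 5568 other genes whose mean log2 CPM was 5 or more, the first were Rab18 (r = 0.85), Serp1 (0.85), Fam122b (0.84), Hnrnpll (0.84), and the mitochondrially encoded mt-Nd1 (0.84) and mt-Co1 (0.84). Ptbp3, a splicing repressor of the PTB family, had r = 0.79. Of the members, Hnrnpll ranked 4, Hnrnpdl 10, Srsf11 22 and Srsf2 25, and Hnrnpc ranked 5562 (r = -0.72). At the opposite end stood Lyz2 (r = -0.78), the macrophage lysozyme, Nomo1 (-0.75) and Cd52 (-0.75). Of the genes named so far that are no members, Ptbp3 was called with smoke (lower in WT), and the other 8 (Rab18, Serp1, Fam122b, mt-Nd1, mt-Co1, Lyz2, Nomo1 and Cd52) were called in neither genotype. Smoke-responsive genes stood near both ends as well. Bmt2 and Far1 (r = 0.82 each) were lower in WT. Ctsd (-0.70) and Plxnb2 (-0.69) were higher in both genotypes, Gaa (-0.69) was higher in miR-155 KO, and Tnip1 (-0.70) was lower in both. The axis was chosen after the values were seen, and the points share library composition, so the correlations carry no test.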
